A study of Homo sapiens with 18 samples.

Results

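The genes of the cytosolic ribosome were followed in A1847 cells, an established human line of high-grade serous ovarian cancer, in which control, CARM1 knockout and XBP1 knockdown cells were compared with and without stress of the endoplasmic reticulum (ER). Members were taken by name from the deposited gene table: protein coding genes on an autosome or the X chromosome whose symbols begin with RPL or RPS and a number, together with RPLP0, RPLP1, RPLP2, RPSA and FAU. The rule found 83 of 57736 genes, 50 for the large and 33 for the small subunit, and pseudogenes were left out. Of these, 81 passed the filter on low counts. RPL10L, a second copy of RPL10, had 0 counts in all 18 libraries, which allows up to 3 counts or 0.216 to 0.32 CPM (counts scaled to library size), and RPL3L, a second copy of RPL3, had 0 to 3 counts.

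The 6 groups of 3 libraries were control, CARM1 knockout and XBP1 knockdown cells, each treated for 8 h with vehicle or with 5 μg/ml tunicamycin (TM). TM blocks the first step of N-glycosylation, so that unfolded proteins accumulate in the ER. CARM1 is an arginine methyltransferase that acts as a transcriptional co-activator, and XBP1 is the transcription factor made active by IRE1α under ER stress. The study compared these genotypes to learn how CARM1 bears on the XBP1 response. In the labels the control cells are wild type for both genes. Per the study's methods the knockout came from lentiviral CRISPR with 1 guide and the knockdown from 1 short hairpin RNA. Whether the knockout cells were 1 clone is not stated in the sources used here. The labels do not say that replicates were separate cultures, so p-values measure the spread between these libraries, which may be technical.

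A ribosome joins a large and a small subunit, and most cytosolic ribosomal proteins are present in 1 copy per ribosome. Their mRNAs are among the most abundant in growing cells and start with a C followed by a run of pyrimidines, the terminal oligopyrimidine (TOP) motif. Through this motif and the protein LARP1, mTORC1 signalling sets how strongly these mRNAs are translated and how long they last. Under ER stress the kinase PERK phosphorylates eIF2α, which lowers the initiation of translation in general.

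The start site sequences are shown because the motif is what most of these genes share beyond their function, and because the second copies RPS27L and RPL36AL differ in it from their counterparts. RefSeq start sites (GRCh38.p14) were matched for 65 of the 81 tested members. The annotated start was a C in 48 of them (73.8%), against 11.3% of 10857 other protein coding genes tested. A run of at least 5 C or T that begins with a C at the start was found in 43 members (66.2%), against 5.0% of the other genes tested and 4.1% of all 35116 promoters in the table. The search was on the gene's strand only. Each line below gives 10 bases before the annotated start and 20 bases from it, 5′ to 3′ on the gene's strand, with the run that begins at the start in capitals.
RPS18 (chr6:33272065-33272094, plus strand): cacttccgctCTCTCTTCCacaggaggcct
RPL35 (chr9:124861938-124861967, minus strand): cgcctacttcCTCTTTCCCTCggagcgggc
RPLP0 (chr12:120201092-120201121, minus strand): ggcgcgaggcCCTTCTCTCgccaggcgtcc
RPLP1 (chr15:69452808-69452837, plus strand): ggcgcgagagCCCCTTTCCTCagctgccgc
RPS25 (chr11:119018324-119018353, minus strand): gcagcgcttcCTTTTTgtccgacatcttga
RPS27 (chr1:153990752-153990781, plus strand): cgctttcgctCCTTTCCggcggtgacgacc
RPS27L (chr15:63157458-63157487, minus strand): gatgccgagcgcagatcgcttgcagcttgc
RPL36A (chrX:101391001-101391030, plus strand): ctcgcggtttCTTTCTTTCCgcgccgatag
RPL36AL (chr14:49620607-49620636, minus strand): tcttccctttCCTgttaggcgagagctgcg
RPS27 had a run of 7 and its second copy RPS27L a run of 0. RPL36A had a run of 10 and its second copy RPL36AL a run of 3. RPS18, RPLP0 and RPLP1, which rose with TM in control cells, and RPS25, which fell, all start with such a run, of 6 bases in RPS25 and of 9 to 11 in the others. RPL35, which was not called with TM in control cells, has a run of 11.

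Library totals were 9367462 to 13917212 counts (median 12899157). Over all genes tested, log2 CPM correlated at r = 0.993 to 0.995 within groups and at 0.968 to 0.993 between control and XBP1 knockdown libraries of different groups, but at only 0.793 to 0.826 between CARM1 knockout and other libraries. CARM1 itself was at 160 to 165 CPM in control and 71.5 to 77.6 in knockout cells with vehicle, and XBP1 at 43.2 to 51.1 in control and 24 to 26.5 in knockdown cells. Of 8 markers of Müllerian or ovarian carcinoma cells, 3 were above 1 CPM in every control library with vehicle and 5 in every knockout library, and their summed level was 310 to 331 CPM in control, 2670 to 2770 in knockout and 130 to 144 in knockdown cells. PAX8, a defining transcription factor of Müllerian epithelium, was at 0 to 0.0773 CPM in control and 56.9 to 65.2 CPM in knockout cells, KRT7 at 0.232 to 0.883 and 393 to 433 CPM, and MUC16 was at 0 in all libraries. Fibroblast markers summed to 809 to 889, 462 to 501 and 814 to 860 CPM in control, knockout and knockdown cells with vehicle. COL1A2 was at 789 to 867 CPM in control and 0 to 0.586 CPM in knockout cells. COL1A1 went the other way, at 13.1 to 17.3 CPM in control and 457 to 493 CPM in knockout cells. Leukocyte markers summed to at most 3.55 CPM and the 2 endothelial markers matched to at most 0.318 CPM in any library, with CD3E at 0 throughout. The libraries labelled CARM1 knockout therefore differed from the control libraries far beyond these genes. Whether they come from the same line as the control cells was not tested, so in each value on the knockout below a difference between lines or clones and an effect of losing CARM1 cannot be told apart. In bulk RNA a change in the cells present and a change in RNA per cell cannot be told apart.

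Some members differed strongly between replicates of the same group, and they did so together. RPS18, a protein of the head of the small subunit, was at 366, 370 and 800 CPM in control cells with vehicle. With TM it was at 840, 1110 and 1140 CPM there. Vehicle replicate 3 thus came close to the TM libraries, although the groups did not overlap. In XBP1 knockdown cells RPS18 was at 773, 897 and 284 CPM with vehicle and at 980, 331 and 456 CPM with TM, so that the groups overlapped. In CARM1 knockout cells it was at 2080, 2880 and 2680 CPM with vehicle and at 3200, 3270 and 3330 CPM with TM. The within-group SD of RPS18 was 0.576 on the log2 scale, the highest of the 81 members, and it was also high in RPL35 (0.376), RPL28 (0.294) and RPL8 (0.268). The median over members was 0.0527, against 0.143 over all 17317 genes tested and 0.0776 over the 5711 of them with a mean of at least 32 CPM, so most members varied little. RPL35 and RPL8 had their highest library where RPS18 had its highest in 6 of 6 groups, and RPL28 in 5. Vehicle replicate 3 of the control, vehicle replicate 3 of the XBP1 knockdown and TM replicate 1 of the XBP1 knockdown stood apart from their groups in these genes. Counts of called members are therefore also given without these 3 libraries, a choice made after the values were seen. A comparison lost only those of the 3 that belong to it. Since members themselves pointed to these libraries, such counts show only how far the calls depend on them and support no difference. The cause of the spread was not tested.

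**Figure D1:**
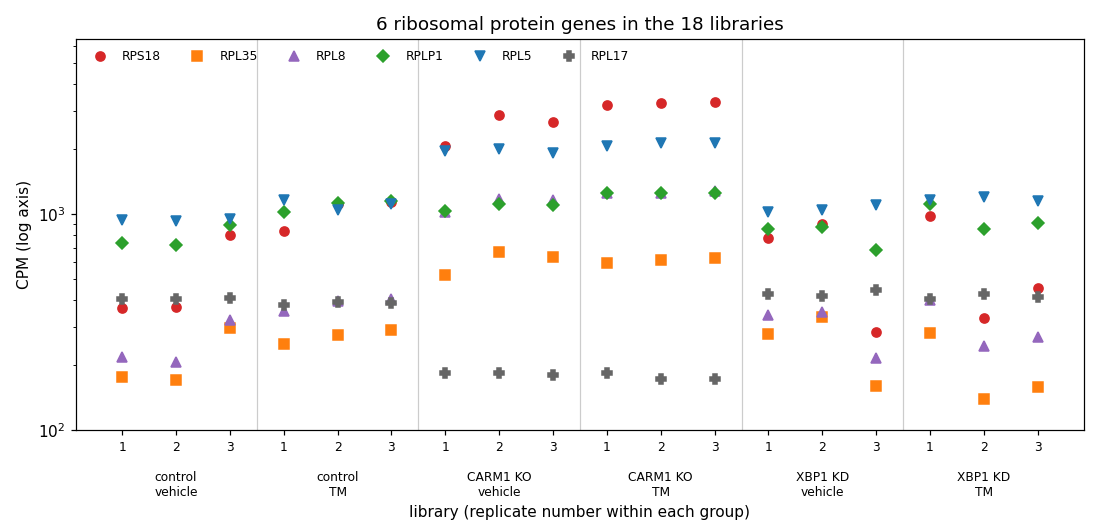
CPM on a log axis of 6 ribosomal protein genes in each of the 18 libraries, 3 per group. RPS18, RPL35 and RPL8 moved together between replicates, as in vehicle replicate 3 of the control and TM replicate 1 of the XBP1 knockdown, while RPL5 and RPL17 stayed nearly level within each group.

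The members took a larger part of the mRNA in CARM1 knockout than in control cells. Together they held 6.51, 6.44 and 6.90% of all counts in control cells with vehicle and 6.62% ± 0.249 on average (SD, n = 3). In knockout cells with vehicle the share was 8.34% ± 0.13, with 8.19% as the lowest of the 3 libraries. With TM the shares were 6.47% ± 0.221 in control and 8.50% ± 0.0553 in knockout cells. XBP1 knockdown cells were at 6.96% ± 0.0818 with vehicle and 6.65% ± 0.0303 with TM. The knockout libraries lay above all other libraries under both treatments. Control cells with and without TM overlapped, whereas in the knockdown all 3 vehicle libraries (6.90 to 7.05%) lay above the TM libraries (6.64 to 6.69%). The knockout went the other way, with all 3 vehicle libraries (8.19 to 8.44%) below the TM libraries (8.46 to 8.57%). Large subunit genes had 0.896 ± 0.00349 of the counts of small subunit genes in control, 0.948 ± 0.00647 in knockout and 0.916 ± 0.00101 in knockdown cells with vehicle, and the 3 groups did not overlap. The same ratio with TM was 0.879 ± 0.00833, 0.938 ± 0.00178 and 0.891 ± 0.0111. With 3 libraries against 3 an exact permutation test cannot go below p = 0.1.

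**Figure D2:**
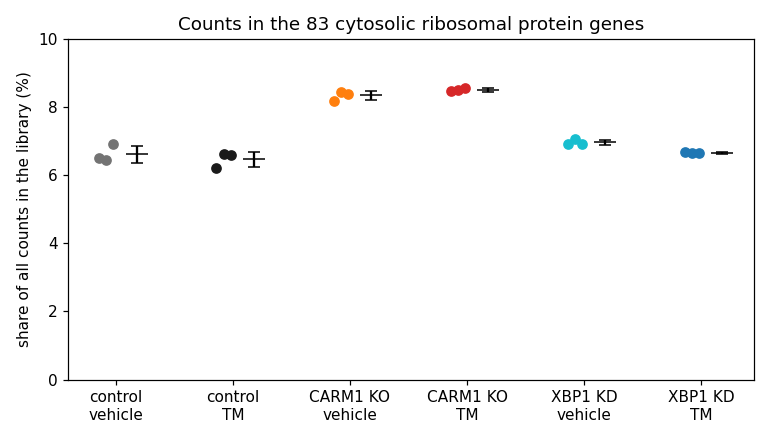
Share of all counts (%) that fell on the 83 ribosomal protein genes, with 1 point per library and the mean ± SD of each group of 3 beside it. The CARM1 knockout libraries sat between 8.19 and 8.57%, above all others, which sat between 6.22 and 7.05%.

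CARM1 knockout cells had higher mRNA of most ribosomal protein genes. With vehicle 65 of 81 members were higher than in control cells and 7 lower, at an FDR of 5% in edgeR's quasi-likelihood test over all genes. Over all genes tested 38.8% were higher and 35.3% lower. The median log2 fold change of the members was 0.42, that of all genes 0.01. With TM 64 were higher and 6 lower (38.1% and 37.1% of all genes), with a median of 0.42 against −0.02. The same 61 members were higher under both treatments and the same 6 lower (33.3% and 29.6% of all genes), 7 were called under neither, and the other 7 were called under 1 treatment only or, for RPS27, in opposite directions. The log2 fold changes under the 2 treatments, which share no library, correlated at r = 0.95 across the 81 members and at 0.94 across other genes. With vehicle 42 of 48 large subunit genes were higher and 2 lower (median 0.48), and 23 of 33 small subunit genes were higher and 5 lower (median 0.39).

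The highest of them were RPS18 and RPL8. With vehicle RPS18 (chr6:33239852-33244288 in GRCh37) was 4.97-fold higher in knockout cells, with a log2 fold change of 2.31 ± 0.225 (SE). Without control vehicle replicate 3, the only 1 of the 3 libraries that stood apart in this comparison, it was 2.79. RPL8, a large subunit protein near the peptidyl transferase centre, was at 219, 207 and 322 CPM in control and at 1020, 1180 and 1160 CPM in knockout cells, 4.47-fold higher (log2 2.16 ± 0.121). None of the libraries of these groups overlapped for either gene. RPS10 (chr6:34385231-34393846), a protein at the mRNA entry side of the small subunit and one of the genes mutated in Diamond-Blackfan anemia, differed far beyond its replicate spread. It was at 1760, 1790 and 1880 CPM in control and at 5620, 5680 and 5610 CPM in knockout cells (3.11-fold, adjusted p = 1.98e-15 in edgeR). RPL35 at the exit tunnel was 2.82-fold higher, with 176, 171 and 298 against 522, 666 and 635 CPM. RPSA (chr3:39448207-39467746), a small subunit protein also known as the laminin receptor, was 2.61-fold higher, and RPL31 2.57-fold. With TM the highest were RPS10 (log2 1.73 ± 0.0404), RPL8 (1.71 ± 0.0459), RPS18 (1.67 ± 0.082), RPL27 (1.34 ± 0.0358), RPSA (1.32) and RPL31 (1.31).

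A few members went the other way. RPL17 (chr18:47014823-47018878), at the rim of the exit tunnel, was at 406, 403 and 410 CPM in control and at 184, 184 and 179 CPM in knockout cells (log2 fold change −1.15 ± 0.0424). RPS20 was at 813, 819 and 849 CPM in control and at 443, 451 and 450 CPM in knockout cells (−0.88 ± 0.0395). For both genes the libraries of a group lay close together and the groups far apart. RPL24 (−0.62), RPS4X (−0.55), RPS12 (−0.43) and RPS27A (−0.40) were the other members lower under both treatments, and with TM the 6 ranged from −1.14 in RPL17 to −0.35 in RPS27A. RPL3 was at 0.987 of its control level (log2 −0.02 ± 0.0484, adjusted p = 0.74 in edgeR) and was not called.

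**Figure D3:**
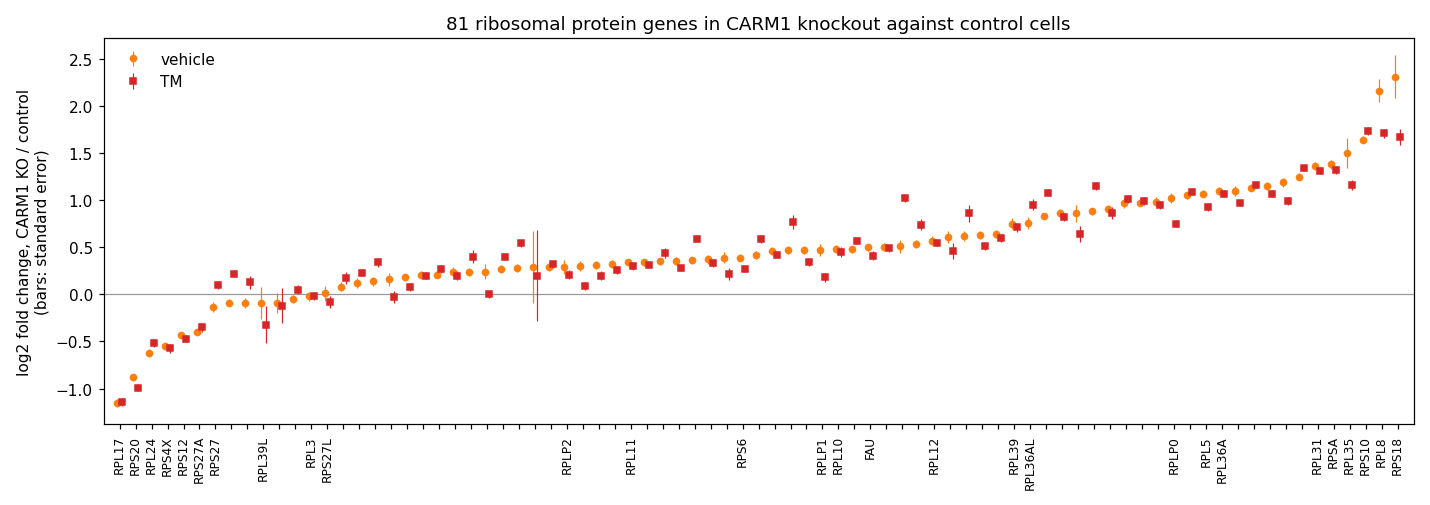
Log2 fold change in CARM1 knockout against control cells of the 81 tested members, ordered by the value with vehicle, with standard errors as bars (3 libraries per group) and names for the members chosen by rule in this comparison. Most points lie above 0 under vehicle (circles) and TM (squares), from −1.15 in RPL17 to 2.31 in RPS18.

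The differences in knockout cells went with those of the surrounding genes. For each member the median log2 fold change of the other genes tested within 5 Mb on the same chromosome (GRCh37) was taken. Across members it correlated with the member's own change at r = 0.63 with vehicle and 0.65 with TM, against 0.17 and 0.18 across 16697 other genes. The 2 sets are not alike, since the median within-group SD on the log2 scale was 0.0527 for members and 0.143 over all genes tested. Other genes matched to the members in level were not compared. The points are not independent, since members on 1 chromosome arm can share neighbours. RPL8 lay among genes with a median of 1.15, RPL31 of 0.78, RPSA of 0.64, and at the other end RPL17 among genes with −0.92 and RPS27A with −0.82. RPL35 (neighbours near 0) and RPL36A (neighbours −0.34, RPL36A itself 1.10) were high without such neighbours, and RPS20 and RPS12 were low with neighbours above 0. In the 27 members with the lowest neighbourhoods (−0.92 to −0.16) the median change was 0.29, in the middle 27 it was 0.34 and in the 27 with the highest (0.22 to 1.15) 0.98. Members lay above their neighbours in 72 of 81 cases under either treatment, by a median of 0.49 with vehicle and 0.51 with TM, where 49.7% of other genes lay above theirs. In XBP1 knockdown cells the same correlation was −0.11 with vehicle and −0.10 with TM. Members lay above their neighbours there too, in 69 of 81 cases with vehicle and 55 with TM, by a median of 0.11 and 0.05. Copy number was not measured, and its part was not tested.

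**Figure D4:**
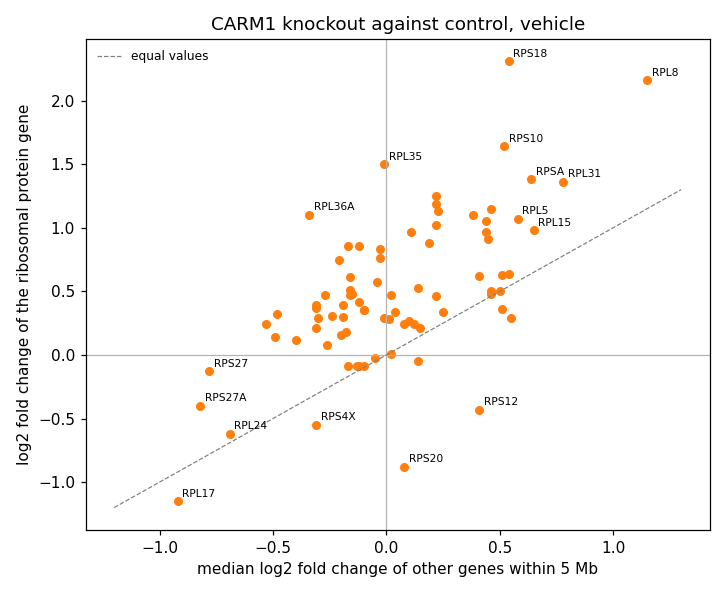
Log2 fold change (CARM1 knockout against control, vehicle) of each of the 81 members against the median of other genes within 5 Mb, where the dashed line marks equal values. Members rise from RPL17 at the lower left to RPL8 at the upper right (r = 0.63), and 72 of 81 lie above the line.

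TM moved the ribosomal protein genes in both directions, by little. In control cells 29 members were higher and 17 lower, where 21.4% of all genes were higher and 20.4% lower, and the median log2 fold change was 0.06 against 0.00 over all genes. The count of higher members fell to 17 without vehicle replicate 1, to 16 without vehicle replicate 2 and to 16 without TM replicate 3 of the control. In CARM1 knockout cells 33 were higher and 13 lower (18% and 21.4% of all genes), with a median of 0.05 against −0.03. There the higher members were 20 with all 18 libraries in 1 fit and the lower 8 in DESeq2. In XBP1 knockdown cells 20 were higher and 16 lower (19.7% and 18.5% of all genes), with a median of 0.02. The share of members lower was thus near that of all genes in each genotype, and the share higher was 35.8%, 40.7% and 24.7% of members. The members' log2 fold changes correlated at r = 0.79 between control and knockout cells (other genes 0.38), at 0.66 between control and knockdown cells (other genes 0.59) and at 0.55 between knockout and knockdown cells (other genes 0.36). These responses share no library, and genes are not independent replicates. Members also spread less between replicates than all genes tested, with a median within-group SD of 0.0527 against 0.143 on the log2 scale. Neither these correlations nor the shares of members called in any comparison were set beside genes matched to the members in level.

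The members that rose with TM in all 3 genotypes were 16 of 81, where 9.27% of all genes did, among them the stalk proteins RPLP0, RPLP1 and RPL12, the large subunit core proteins RPL3, RPL4 and RPL10, RPL5, RPS2, RPS12, RPS4X and RPS6. RPLP0, the base of the stalk that recruits elongation factors, was at 458, 444 and 515 CPM with vehicle and at 631, 645 and 658 CPM with TM in control cells. Its log2 fold change was 0.45 ± 0.0577 (1.36-fold), against 0.18 ± 0.0299 in knockout and 0.29 ± 0.0572 in knockdown cells. RPLP0 did not overlap between vehicle and TM in any genotype. RPL12, which binds at the stalk's base, rose by close values in the 3 genotypes, at 0.37 in control, 0.35 in knockout and 0.32 in knockdown cells. RPL10, which joins the subunit late and takes part in subunit joining, rose by 0.31, 0.27 and 0.37. RPS12 was at 3810, 3680 and 3820 CPM with vehicle and at 4250, 4610 and 4520 CPM with TM in control cells. RPS4X rose by 0.16 in control cells, a call lost without vehicle replicate 2 or TM replicate 2 or 3 (adjusted p = 0.0796 to 0.13 in edgeR). RPLP1 rose by 0.26 in knockdown cells, a call lost without vehicle replicate 3 or TM replicate 1 or 3 of the knockdown (0.0513 to 0.188) and in DESeq2 (0.227). Without the 3 libraries that stood apart its value there was 0.04, given with no test. In knockout cells RPLP1 was not called with all 18 libraries in 1 fit (0.0699).

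The members that fell with TM in all 3 genotypes were 9 of 81, a share near the 8.9% of all genes that did. RPS25, RPL7A, RPS26, RPL38 and RPL23A were among these members. RPS25 (chr11:118886422-118889401), a small subunit protein that several viral internal ribosome entry sites require, was at 791, 821 and 971 CPM with vehicle and at 560, 570 and 538 CPM with TM in control cells. In knockdown cells it was at 962, 949 and 1010 CPM and at 567, 583 and 567 CPM. In both genotypes every TM library lay below every vehicle library, with a log2 fold change of −0.63 ± 0.0668 and −0.77 ± 0.0376. RPL7A (chr9:136215073-136218281) fell from 733, 706 and 734 CPM to 477, 498 and 513 CPM in control cells. It fell by 0.55, 0.28 and 0.51 on the log2 scale in control, knockout and knockdown cells. RPS26 (chr12:56435135-56438481), which touches the mRNA at the exit channel of the small subunit, fell by 0.49, 0.39 and 0.47. RPL38, known for the translation of Hox mRNAs in the embryo, fell by 0.40 in control and by 0.56 in knockdown cells. It fell less in knockout cells, from a mean of 1730 to 1570 CPM, against 1430 to 1080 CPM in control cells. RPL36AL was higher with TM in knockout (0.18) and lower in knockdown cells (−0.29), the only member called in both directions. Another 22 members were called in no genotype, among them RPL11, RPL35, RPLP2, RPS27A and FAU.

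**Figure D5:**
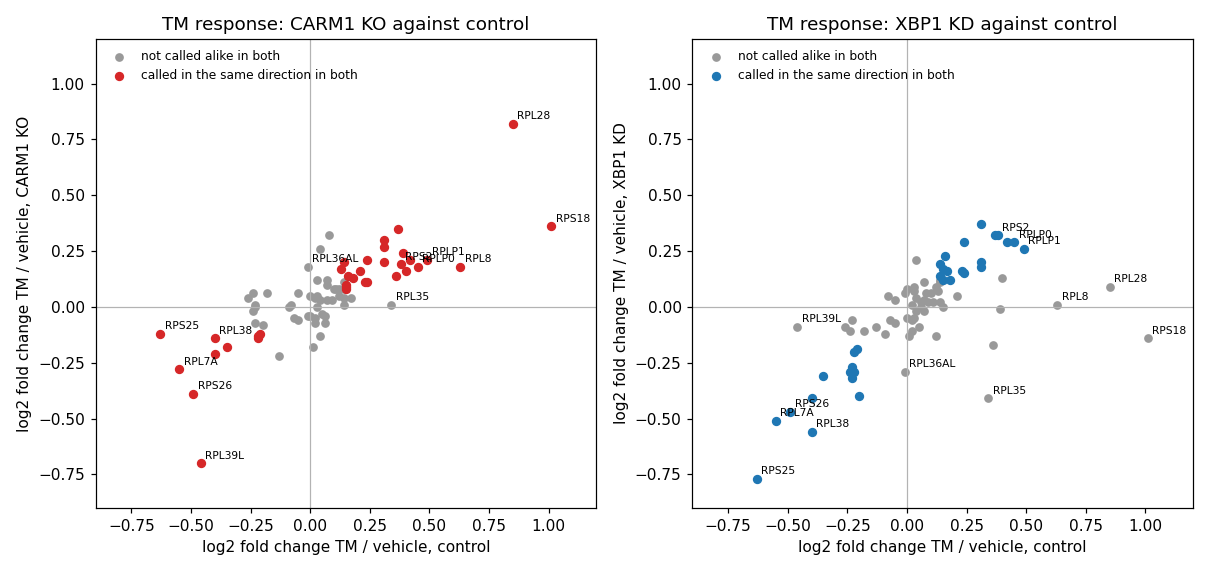
Log2 fold change of TM against vehicle in CARM1 knockout (left) and XBP1 knockdown cells (right) against that in control cells, with 1 point per member (81) and coloured points called in the same direction in both. RPL7A and RPS26 sit at the lower left in both panels and RPS25 in the right one. RPS25 fell less in knockout than in control cells (interaction 0.51) and so lies nearer 0 on the left. RPS18 (1.01) and RPL8 (0.63) are high in control cells and near 0 or below in knockdown cells (−0.14 and 0.01, not called).

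RPS18 and RPL8 had the highest log2 fold changes with TM in control cells among the members whose groups did not overlap, at 1.01 ± 0.213 and 0.63 ± 0.117, and both belong to the genes that spread most between replicates. In knockdown cells their values were −0.14 ± 0.356 and 0.01. Without the 3 libraries that stood apart RPS18 was at 1.48 in control and −1.08 in knockdown cells, RPL8 at 0.85 and −0.43, and RPL35 at 0.65 and −1.05. Since these genes pointed to those libraries, the values are given with no test. RPL28 had a log2 fold change of 0.85 ± 0.188 in control cells, where the groups overlapped (57.7, 58.4 and 74.1 against 70.3, 117 and 156 CPM), and of 0.82 ± 0.0804 in knockout cells, where they did not. The RPL28 row overlaps UBE2S on the opposite strand, whose row held 674% of the counts of RPL28. The strand setting of the counting is not stated in the sources used here, so these reads cannot be told apart with certainty.

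Whether the TM response differed between knockout and control cells was tested as the interaction. It was higher in knockout cells for 8 members and lower for 5 (10.3% and 12.7% of all genes), with a median of −0.03. RPS25 fell less in knockout cells, where it was at 1210, 1320 and 1150 CPM with vehicle and at 1120, 1110 and 1160 CPM with TM, and the interaction was 0.51 ± 0.0874 (adjusted p = 0.00021 in edgeR). For RPL7A it was 0.26 ± 0.055. RPS16 was at 803, 799 and 836 CPM with vehicle and at 658, 700 and 702 CPM with TM in control cells, but at 766, 769 and 763 and at 806, 784 and 802 CPM in knockout cells, so that it fell in control cells and was not called in knockout cells (log2 0.06), with an interaction of 0.30 ± 0.0546. RPLP0 rose less in knockout cells (−0.26 ± 0.0663). These 4 calls held when any 1 library was left out. Calls for RPL8 (−0.45) were lost without control vehicle replicate 1 or 2, control TM replicate 2 or 3, knockout vehicle replicate 2 or 3 or any knockout TM library (adjusted p = 0.0547 to 0.0945), in DESeq2 (0.162) and with all 18 libraries in 1 fit (0.175). Those for RPLP1 (−0.28) were lost without control vehicle replicate 1 or 2, control TM replicate 3 or knockout vehicle replicate 2 or 3 (0.0516 to 0.0681) and with all 18 libraries in 1 fit (0.11), and those for RPL4 (−0.22) without control vehicle replicate 1, control TM replicate 3 or knockout vehicle replicate 1 (0.0525 to 0.0551). The count of higher members was 14 without control TM replicate 2. The count of lower members was 14 without control vehicle replicate 3, 1 without control vehicle replicate 1 or control TM replicate 3, 2 without control vehicle replicate 2 or knockout vehicle replicate 2, and 3 without knockout vehicle replicate 3 or knockout TM replicate 1 or 2. Of the 3 libraries that stood apart only control vehicle replicate 3 belongs to this comparison, so leaving them out is the same fit, with 14.

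XBP1 knockdown cells differed little from control cells in these genes. With vehicle 11 members were higher and 0 lower at an FDR of 5% in edgeR, where 2.34% of all genes were higher and 2.94% lower. At an unadjusted p below 0.05 they were 34 and 1, and DESeq2 called 15 and 0. The median log2 fold change was 0.10 against 0.00 over all genes, and 74 of 81 values were above 0. RPL3 (0.22 ± 0.0504), RPL27 (0.21 ± 0.049), RPL12 (0.21 ± 0.0504), RPL34 (0.20), RPL11 (0.19) and RPS7 (0.19) led. RPL27 was at 739, 727 and 750 CPM in control and at 808, 848 and 908 CPM in knockdown cells, so that the groups did not overlap although the change was 1.16-fold. The count depended on single libraries: it was 0 without control vehicle replicate 1 or 2 or knockdown vehicle replicate 2, 1 without knockdown vehicle replicate 3, 25 without control vehicle replicate 3 and 33 without the 3 libraries that stood apart.

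With TM 15 members were higher in knockdown than in control cells and 3 lower (6.96% and 8.65% of all genes), with a median of 0.08 against 0.00. RPSA (0.19 ± 0.0466), RPL27 (0.18), RPL7A (0.18), RPL26 (0.18), RPL32 (0.17) and RPS4X (0.17) led. RPSA was at 194, 199 and 203 CPM in control and at 229, 223 and 228 CPM in knockdown cells. The lower members included RPS18 (−0.80) and RPL28 (−0.67), which were named after their values were seen and are among the genes that spread most between replicates. The count of higher members fell to 5 without control TM replicate 3, to 3 without knockdown TM replicate 2 and to 4 without knockdown TM replicate 3. The count of lower members was 7 without control TM replicate 1, 0 without control TM replicate 3, 10 without knockdown TM replicate 1 and 1 without knockdown TM replicate 2. It was 0 in DESeq2, 5 with a replicate block and 9 with no filter. Of the 3 libraries that stood apart only knockdown TM replicate 1 belongs to this comparison. In the knockdown 5 members were higher under both treatments (1.4% of all genes, with 1.81% lower), RPL11, RPL12, RPL27, RPS7 and RPS24, of which RPS24 was named after its values were seen. The interaction of knockdown with TM was called for 0 members in either direction in edgeR (0.416% of all genes were higher and 1.54% lower). At an unadjusted p below 0.05 it was 0 higher and 12 lower, and DESeq2 called 0 higher and 1 lower. With no filter 9 members were lower, and without the 3 libraries that stood apart 10 were, while 0 were higher in either.

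The members of the stalk and of the particle that carries 5S rRNA were among the 80.2% of members that were higher in knockout cells with vehicle. RPL5 (chr1:93297570-93307481) and RPL11 bring 5S rRNA into the large subunit and, when free, bind MDM2 and so protect p53. RPL5 was at 937, 928 and 947 CPM in control and at 1960, 2000 and 1920 CPM in knockout cells (2.09-fold), while RPL11 was 1.26-fold higher. With TM RPL5 rose by 0.24 on the log2 scale in control, 0.11 in knockout and 0.15 in knockdown cells, whereas RPL11 was at 0.00, −0.04 and −0.05 and was not called. All 4 stalk genes were higher in knockout cells, RPLP0 2.02-fold, RPL12 1.48-fold, RPLP1 1.38-fold and RPLP2 1.22-fold with vehicle. Under TM they were called too, but RPLP1 (adjusted p = 0.0607 in edgeR) and RPLP2 (0.121) were not with all 18 libraries in 1 fit. With TM against vehicle 3 of 4 rose in every genotype, and RPLP2 (0.12, 0.05 and −0.13) was not called. RPS27A and FAU, which encode a ribosomal protein fused to ubiquitin or to a ubiquitin-like protein, moved apart in knockout cells. FAU was 1.41-fold higher, RPS27A at 0.759 of its control level, and neither was called with TM in any genotype.

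The second copies and their counterparts are given side by side. RPS27L was at 175, 188 and 145 CPM in control and at 175, 162 and 173 CPM in knockout cells (log2 0.01 ± 0.0758), and RPL39L, a testis-enriched copy at 5.26 to 6.42 CPM in control cells with vehicle, at −0.09 ± 0.172, where their counterparts were at −0.13 (RPS27) and 0.75 (RPL39). RPL36AL was 1.69-fold and RPL36A 2.15-fold higher. With TM RPL39L fell by 0.46 in control cells, a call lost without any of vehicle replicates 2 and 3 or TM replicates 1 to 3 (adjusted p = 0.0641 to 0.129 in edgeR), with no filter (0.0731), with a replicate block (0.0555) and in DESeq2 (0.134), and it fell by 0.70 ± 0.195 in knockout cells. RPS27L fell by 0.22 ± 0.0461 in knockout cells and was not called in control (−0.13) or knockdown cells (−0.09), and the interaction of knockout with TM was not called for it (−0.09). The calls for RPS27 in the knockout, −0.13 with vehicle and 0.10 with TM, were lost with vehicle without control vehicle replicate 3 or knockout vehicle replicate 1 or 3 (0.0953 to 0.161) and with TM without any control TM library or knockout TM replicate 2 or 3 (0.0592 to 0.22). With vehicle the call was also lost with DESeq2's size factors (0.0627) and a replicate block (0.0591), and with TM with TMM factors taken without the members (0.0688), no filter (0.0667), all 18 libraries in 1 fit (0.0741) and a replicate block (0.0855). Of 9 genes mutated in Diamond-Blackfan anemia, 7 were higher in knockout cells under each treatment, 2 rose and 2 fell with TM in each genotype, and 4 with vehicle and 5 with TM were higher in the knockdown. The share higher in knockout cells (77.8%) was near that of all members (80.2% with vehicle and 79.0% with TM), and the shares that rose and fell with TM (22.2% each) were near those of all genes. In the knockdown the shares higher were 44.4% with vehicle and 55.6% with TM. There 13.6% and 18.5% of members and 2.34% and 6.96% of all genes were higher. Member counts in the knockdown depended on single libraries. Of 6 genes at the rim of the exit tunnel, 5 were higher (83.3%, near the 80.2% of members) and 1, RPL17, lower in knockout cells with vehicle.

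The genes that work with the ribosome were counted in the same fits, and their shares stand beside those of all genes, of which 21.4% rose and 20.4% fell with TM in control cells. With TM, of 36 translation factors 22 rose (61.1%) and 3 fell in control cells (median 0.20), 27 and 1 in knockout cells and 21 and 5 in knockdown cells. EIF5 (1.17 ± 0.0562), EIF2S2 (0.93 ± 0.0459) and EIF1 (0.86 ± 0.0472), which act in start codon selection or in the eIF2 complex, rose most, and EIF4E, the cap-binding protein, fell by 0.40. Of 59 ribosome assembly factors 27 rose (45.8%) and 11 fell (18.6%) in control cells (median 0.10), with RRP12 at 0.87 and UBTF, an activator of RNA polymerase I, at −0.94. Among 17 regulators of mTORC1 and TOP mRNAs 11 rose (64.7%) and 1 fell in control cells. SESN2, an inhibitor of mTORC1, rose from a mean of 98.0 to 918 CPM in control and from 36.4 to 367 CPM in knockout cells, and EIF4EBP1, a repressor of eIF4E, rose from 27.1 to 81.8 CPM in control cells. Of 18 other TOP mRNAs 11 rose (61.1%) and 2 fell in control cells (median 0.19), with EEF2 and RACK1 at 0.39. Of 76 mitochondrial ribosomal protein genes 14 rose (18.4%) and 25 fell (32.9%) in control cells with TM, so that the share that rose was near that of all genes, and 7 rose and 34 fell in knockdown cells (9.21% and 44.7%, against 19.7% and 18.5% of all genes).

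In knockout against control cells with vehicle, 27 mitochondrial ribosomal protein genes were higher and 25 lower (median 0.02). These shares (35.5% and 32.9%) were near the 38.8% and 35.3% of all genes. Of the assembly factors 18 were higher (30.5%) and 32 lower (54.2%), with a median of −0.19. EIF6, which keeps the subunits apart until the large subunit is mature, was among the higher (1.24 ± 0.0449) and WDR75 among the lower (−1.45 ± 0.0607). Translation factors counted 19 higher (52.8%) and 14 lower (38.9%), with a median of 0.19, and were led by EEF1D (1.63 ± 0.0395), with EIF2S3 at −1.26. Of 18 other TOP mRNAs 10 were higher (55.6%) and 6 lower (33.3%), with a median of 0.40. Of the 17 regulators 8 were higher (47.1%) and 6 lower (35.3%), with a median of 0.17, so that the share lower was that of all genes. DDIT4, an inhibitor of mTORC1, was at 3.65 CPM on average in knockout and 71.6 CPM in control cells with vehicle, and SESN2 was lower as well (−1.43 ± 0.0612). MAF1, a repressor of RNA polymerase III (1.82 ± 0.0514), the S6 kinase gene RPS6KB2 (1.39 ± 0.25) and EIF4EBP1 (1.34 ± 0.0894) were higher. These lists were given by counts and medians beside the members, and no test compared them.

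The values of some members are less certain than their replicate spread shows. Pseudogene rows with a member's name held a median of 0.12% of the summed counts of gene and pseudogenes, but more than 5% for 11 members, among them RPL21 (76.0%), RPS28 (52.3%), RPL22 (49.9%), RPL3 (38.4%) and RPS26 (15.1%). With pseudogene counts added, the fall of RPL21 with TM in knockout cells went from −0.18 to −0.01. RPL36, RPL4, RPL6, RPL7 and RPS28 overlap a gene on the opposite strand whose row held 20 to 36.9% of the member's counts, and FAU one on the same strand (12.3%).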

How the data were processed

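The authors prepared 3′ mRNA-seq libraries from total RNA (75 nt single reads), aligned the reads to hg19 with bowtie2 and ran RSEM (version 1.2.12 in the methods, 1.2.3 in the submitters' processing notes). The deposited values are expected counts for each Ensembl gene, given as whole numbers and not normalized. The Ensembl release and strand setting are not given in the sources used here. Groups follow the labels' genotype and treatment, and 55501 genes had a symbol and a GRCh37 position.

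Genes were filtered with edgeR's filterByExpr (minimum count 10 over the 6 groups), and 17317 were tested. Counts were scaled by TMM over all 18 libraries, and quasi-likelihood F tests (edgeR 4.0.16, limma 3.58.1, R 4.3.3) used only the libraries compared, or 4 groups for an interaction. P-values were adjusted by Benjamini-Hochberg over all genes tested, at an FDR of 5%. Standard errors were taken as |log2 fold change| over √F. CPM are counts scaled to library size with TMM factors, not divided by length, and were compared within genes only. Floors cover counting error only. Precision was taken from the replicates. Start sites came from RefSeq promoters. Tests were checked on simulated data. Figures were drawn with matplotlib 3.10.9.

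Genes named were the 6 highest and 6 lowest called members of each comparison whose groups did not overlap in CPM (4 and 4 for an interaction), a set of members by role, and at most the 3 highest and 3 lowest called genes of each other list. Some members enter the counts but are not reported by name here. The members, lists and tests were chosen with earlier results of these data known. Alternatives were DESeq2 1.42.0, its size factors, TMM without the members, no filter, all 18 libraries in 1 fit, a replicate block, pseudogene counts added and each library left out in turn. Fits without those of 3 libraries that belong to the comparison were added after seeing the data.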

Additional observations from a re-analysis of the deposited data

Results flagged for a closer look

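The response to TM differed between CARM1 knockout and control cells for 9 of the members named, by the interaction term of edgeR's quasi-likelihood test at an FDR of 5% over all genes. Among all members tested 9.88% were called higher and 6.17% lower, against 10.3% and 12.7% of all genes. The members were thus not called more often than other genes. On the log2 scale the difference was 0.51 for RPS25, 0.30 for RPS28, 0.30 for RPS16, 0.26 for RPL7A and 0.23 for RPS27, whose response was higher in knockout cells. It was −0.45 for RPL8, −0.28 for RPLP1, −0.26 for RPLP0 and −0.22 for RPL4, whose response was lower there. RPS25, RPS16, RPL7A and RPLP0 were called whichever single library was left out. RPS28 was not called without control vehicle replicate 1 or 2, knockout vehicle replicate 2 or 3, or knockout TM replicate 1 (adjusted p = 0.0504 to 0.0684), nor RPS27 without knockout vehicle replicate 1 or 3 or knockout TM replicate 3 (0.0519 to 0.0724). The libraries that end the calls for RPL8, RPLP1 and RPL4 are named with the interaction above.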

How the results depend on the processing

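Called members are counted here as higher or lower, and a value counts as reversed only if it was called. Over the named members 1738 values kept their call, 121 lost it, 1471 were not called before or after, 58 gained a call and 0 reversed. Fewer than 1.5-fold changes in count aside, the following moved. In DESeq2 the lower members with TM in knockout cells were 8 (against 13), the lower in the knockdown with TM 0 and the higher for the knockout interaction 13. With no filter the higher members in the knockdown with vehicle were 22, the lower in it with TM 9, and the lower for the knockout and knockdown interactions 9 and 9. With all 18 libraries in 1 fit the higher members with TM in knockout cells were 20, the higher in the knockdown with vehicle 23, and the lower for the interactions 3 and 1. The knockdown interaction had 1 lower member in DESeq2 and 1 with TMM factors taken without the members. Members themselves had pointed to the 3 libraries that stood apart. Without these libraries the knockdown with vehicle had 33 higher and 1 lower, the knockdown with TM 10 lower, and the interactions 14 and 10 lower. With a replicate block the knockdown with TM had 5 lower, and other counts stayed within 1.5-fold. Same-numbered libraries deviated from their group means with correlations of −0.091 to 0.0624, and the number of libraries (of 6) that correlated best with their own number was 0 to 2, so the numbers do not pair the libraries.

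Leaving out each library in turn, the higher and lower members ranged from 16 to 33 and 14 to 18 with TM in control, 27 to 38 and 9 to 14 in knockout, and 16 to 20 and 14 to 19 in knockdown cells. They ranged from 61 to 66 and 6 to 7 for the knockout with vehicle, 62 to 64 and 6 to 8 with TM, 0 to 25 and 0 to 1 for the knockdown with vehicle, and 3 to 20 and 0 to 10 with TM. For the interactions they ranged from 6 to 14 and 1 to 14 in the knockout, and from 0 to 0 and 0 to 2 in the knockdown. The causes were not tested.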
